A study of Mus musculus with 2 samples.

Results

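The text describes 8 microRNA (miRNA) genes of mouse chromosome 12, the 5 that lie opposite the gene Rtl1 (Mir431, Mir433, Mir127, Mir434 and Mir136) and the 3 that lie within the long noncoding RNA Rian (Mir341, Mir1188 and Mir370). They were picked from the 2202 miRNA genes of the deposited count files by their symbols in GENCODE annotation M21, not by their counts, and all 8 were listed. The study sequenced small RNA of the left cerebral cortex, taken from B6CASTF1/J males aged 10 days. It holds 1 group of 2 libraries, labelled as biological replicates 1 and 2 and numbered as separate males under a single donor record, with no treatment, mutant allele or other tissue. B6CASTF1/J are first-generation hybrids of the inbred strains B6 and CAST, so every animal carries a chromosome 12 of each strain. Counts were not split by allele, and each value sums the maternal and paternal copies.

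The genes belong to the imprinted Dlk1-Dio3 region, where the noncoding RNAs Meg3, Rian and Mirg and the miRNAs embedded among them are transcribed from the maternal chromosome. Rtl1, a protein-coding gene derived from a retrotransposon, is expressed from the paternal chromosome and from the opposite strand, and it is needed for the mouse placenta. Because the miRNAs opposite Rtl1 are cut from a transcript that runs antisense to it, they match its mRNA base for base and are known to direct its cleavage. Rian hosts many small nucleolar RNAs besides its miRNAs. In brain, miRNAs of the region are known to be abundant in neurons.

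The 8 hairpins span 27890 bases of the plus strand (mm10, chr12:109590447-109618336). The 5 opposite Rtl1 sit at chr12:109590447-109590537 (Mir431), chr12:109591715-109591838 (Mir433), chr12:109592846-109592915 (Mir127), chr12:109594506-109594599 (Mir434) and chr12:109595327-109595388 (Mir136). All 5 fall inside exon 2 of Rtl1 on the other strand, within its coding sequence of 5232 bases (chr12:109590172-109595403). Between 727 and 1590 bases separate one hairpin from the next. After a gap of 16111 bases come Mir341 (chr12:109611500-109611595), Mir1188 (chr12:109611822-109611941) and Mir370 (chr12:109618258-109618336), each in an intron of 2 of the 20 annotated Rian transcripts. Mir341 and Mir1188 are 226 bases apart, and Mir370 starts 6316 bases after Mir1188 ends.

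Each hairpin yields a mature strand from its 5′ and from its 3′ arm, and the deposited counts add both arms. The 16 mature sequences, from the RefSeq table for GRCm38.p6, are shown because base pairing of the seed (bases 2 to 8, in capitals) largely sets which mRNAs a miRNA binds.
mmu-miR-431-5p: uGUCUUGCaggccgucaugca
mmu-miR-431-3p: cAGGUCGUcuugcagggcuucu
mmu-miR-433-5p: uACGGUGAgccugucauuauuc
mmu-miR-433-3p: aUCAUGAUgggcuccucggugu
mmu-miR-127-5p: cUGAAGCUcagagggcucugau
mmu-miR-127-3p: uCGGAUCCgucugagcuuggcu
mmu-miR-434-5p: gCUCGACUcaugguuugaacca
mmu-miR-434-3p: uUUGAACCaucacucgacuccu
mmu-miR-136-5p: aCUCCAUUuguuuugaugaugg
mmu-miR-136-3p: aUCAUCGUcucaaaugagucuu
mmu-miR-341-5p: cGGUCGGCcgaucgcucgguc
mmu-miR-341-3p: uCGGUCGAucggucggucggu
mmu-miR-1188-5p: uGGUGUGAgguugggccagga
mmu-miR-1188-3p: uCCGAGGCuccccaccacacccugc
mmu-miR-370-5p: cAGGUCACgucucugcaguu
mmu-miR-370-3p: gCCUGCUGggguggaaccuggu

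The 16 strands had 16 different seeds, so no pair of them forms a seed family. Among the 1674 distinct mature sequences of that table, a single other strand shared a seed with any of them. It was miR-1193-3p of Mir1193, a gene further along the same region, whose seed equals that of miR-370-5p.
mmu-miR-1193-3p: uAGGUCACccguuuuacuauc
The reverse complements of all 10 mature strands of the Rtl1-antisense genes, and of their 5 whole hairpins, were found without a mismatch in the annotated Rtl1 transcript. Those of the 3 Rian genes were not found there. No member shared a stretch of 20 bases, read on its own strand, with any other of the 2202 listed hairpins, so none has a near-identical copy among them.

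GC content of the 8 hairpins ran from 40.3% in Mir136 to 60.8% in Mir1188. The hairpin of Mir341, a gene known from rodents, is built from repeats of a short word. It is shown with its 8 copies of UCGG in capitals, counting overlapping places on the gene's strand.
Mir341: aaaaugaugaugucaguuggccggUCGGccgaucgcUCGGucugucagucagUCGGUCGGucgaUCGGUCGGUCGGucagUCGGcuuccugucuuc
Of the 2202 listed hairpins, 279 (12.7%) held UCGG at least once on their own strand, and Mir341 alone held as many as 8 copies.

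The libraries held 9089257 reads (replicate 1) and 7432614 reads (replicate 2), of which 2677910 and 1750076 counted in the sense direction for some miRNA gene. Levels are given as CPM (counts per 1000000 of these assigned reads). Between genes, they compare reads, and whether reads stand for equal numbers of molecules from one gene to another was not tested. A gene with 3 reads would stand at 1.12 CPM in replicate 1 and 1.71 CPM in replicate 2. As a check for neural tissue, 13 neuron-associated miRNA genes were read, which cannot by themselves identify cortex. Their summed level was 45969.8 and 35721 CPM in replicates 1 and 2, and 10 of them reached 2 CPM in both libraries. The other 3 were Mir124a-1, Mir124a-2 and Mir124a-3, each with 10 reads or fewer in either library. Multiply mapped reads were not assigned, and their part at these 3 genes was not tested. Markers of other cells were also present, and some of them differed between the libraries, as given below with Mir370. In such bulk tissue, fewer cells of a type and less RNA per cell cannot be told apart.

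The 8 genes were abundant as a set among the assigned reads, which leave out multiply mapped reads. In replicate 1 they took 7.82% of assigned reads, with a 95% Wilson interval of 7.79% to 7.86%. In replicate 2 they took 6.54%, with an interval of 6.50% to 6.58%, and the mean was 7.18% ± 0.908 (SD, n = 2). Such intervals describe the error of counting alone, because PCR copies of 1 molecule can be read more than once. The 5 Rtl1-antisense genes held most of the reads, with 84.9% of the set's reads in replicate 1 and 90.2% in replicate 2. Mir127 and Mir433 alone accounted for 77.1% and 81.6% of them. The 3 Rian genes held 1.18% of the assigned total in replicate 1, against 0.641% in replicate 2. Mir370 alone gave 22676 of their 31558 reads in replicate 1 and 6494 of 11225 in replicate 2.

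Within the Rtl1-antisense group the levels spread over 245-fold between the highest and the lowest mean. Mir127, whose mature strand is known to cut Rtl1 mRNA and whose loss in mice impairs the placental labyrinth, had 108036 reads (40343 CPM) in replicate 1 and 64724 reads (36984 CPM) in replicate 2. It was the 5th most abundant of all listed genes in replicate 1 and the 6th in replicate 2. Its mean was 38663 ± 2376 CPM (SD, n = 2), the highest of the 8. These ranks rest on assigned reads alone. The 3467794 and 2104180 multiply mapped reads of replicates 1 and 2 counted for no gene, so genes with near-identical copies may rank too low.

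Mir433, which lies 1007 bases upstream of Mir127, is also perfectly complementary to the annotated Rtl1 transcript (the CAST copy was not compared). It had 53498 reads (19978 CPM) in replicate 1 and 28618 reads (16352 CPM) in replicate 2, a mean of 18165 ± 2563 CPM. Mir431, studied in mouse muscle regeneration as well as in brain, is the gene nearest the end of the Rtl1 coding sequence. It had 9192 reads (3433 CPM) in replicate 1 and 5410 reads (3091 CPM) in replicate 2, a mean of 3262 ± 241 CPM.

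Mir434 gave the closest agreement between the libraries, with 6739 reads (2517 CPM) in replicate 1 and 4207 reads (2404 CPM) in replicate 2. Its mean was 2460.2 ± 79.6 CPM, a coefficient of variation of 3.24%. Mir136 was the lowest of the 8, although it lies only 727 bases from Mir434. It had 463 reads (173 CPM) in replicate 1 and 249 reads (142 CPM) in replicate 2, a mean of 158 ± 21.7 CPM. A listed gene between them, Mir432 (chr12:109594956-109595030, plus strand), had 0 reads in both libraries, which allows up to 1.12 and 1.71 CPM.

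Among the Rian genes, Mir370 was the most abundant and the most variable. It had 22676 reads (8468 CPM) in replicate 1 and 6494 reads (3711 CPM) in replicate 2. The mean of 6089 ± 3364 CPM thus averages libraries that stand far apart, with a coefficient of variation of 55.2%, against 3.24% to 18.3% for the other 7 genes. Human miR-370 is known from work on lipid metabolism in liver cells.

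Mir341 had 8101 reads (3025 CPM) in replicate 1 and 4084 reads (2334 CPM) in replicate 2, a mean of 2679 ± 489 CPM. Its neighbour Mir1188 had 781 reads (292 CPM) in replicate 1 and 647 reads (369.7 CPM) in replicate 2, a mean of 331 ± 55.2 CPM. Mir1188 was the only one of the 8 to stand lower in replicate 1. Another listed gene of the Rian interval, Gm23912 (chr12:109618114-109618200), which ends just before Mir370, had 0 reads in both libraries.

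**Figure D1:**
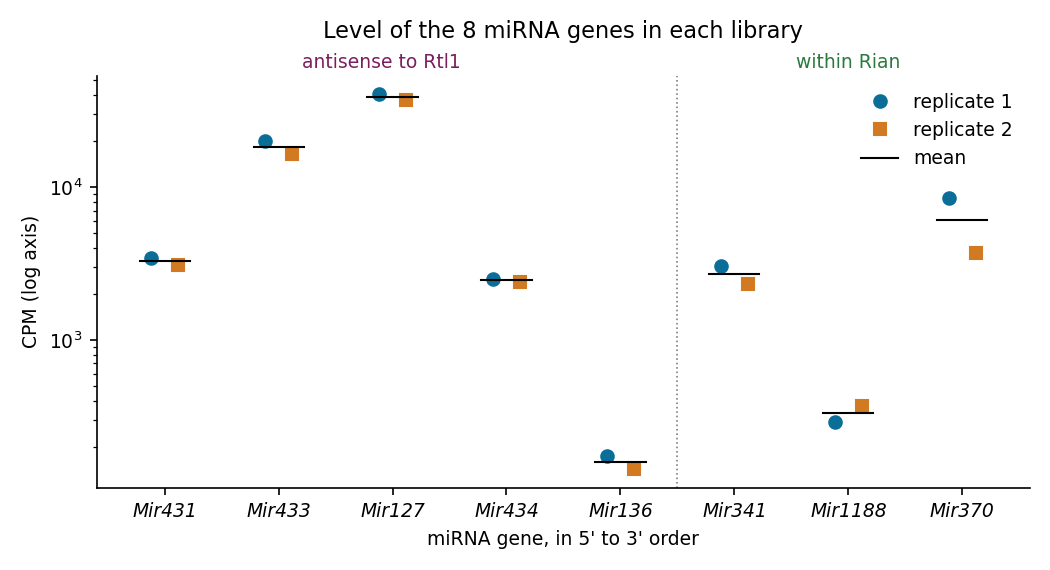
CPM of each of the 8 genes on a log axis, in their order along the chromosome, with 1 point per library and a bar at the mean (n = 2). Mir127 and Mir433 stand highest in both libraries, at 16352 CPM or more, Mir136 stands lowest at 173 and 142 CPM, and the points of Mir370 lie farthest apart.

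By mean level the order was Mir127, Mir433, Mir370, Mir431, Mir341, Mir434, Mir1188 and Mir136. The neighbours Mir341 and Mir434 did not differ beyond their spread, since the ranges of their libraries overlapped and Mir434 stood above Mir341 in replicate 2. The ranges of the other 6 neighbouring pairs did not overlap. By mean level, the narrowest of these gaps was that of Mir431 over Mir341, 1.22-fold (1.14-fold in replicate 1 and 1.33-fold in replicate 2). In replicate 2 alone, that of Mir370 over Mir431 was narrower, at 1.20-fold. The widest was that of Mir434 over Mir1188, 8.63-fold and 6.50-fold. No test of these differences was made, with 2 values a gene. Order along the chromosome did not match order by level.

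Counts set against Mir127 in the same library are free of the library total. Per 1000 Mir127 reads, Mir431 had 85.1 reads in replicate 1 and 83.6 in replicate 2. Mir434 had 62.4 and 65.0, and Mir433 had 495 and 442. Mir136, the last of the companions of Mir127 opposite Rtl1, had 4.29 and 3.85 reads. These genes stood in similar proportions to Mir127 in both libraries. Among the Rian genes, Mir341 had 75.0 reads per 1000 in replicate 1 and 63.1 in replicate 2, Mir1188 had 7.23 and 9.996, and Mir370 had 209.9 and 100.3.

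**Figure D2:**
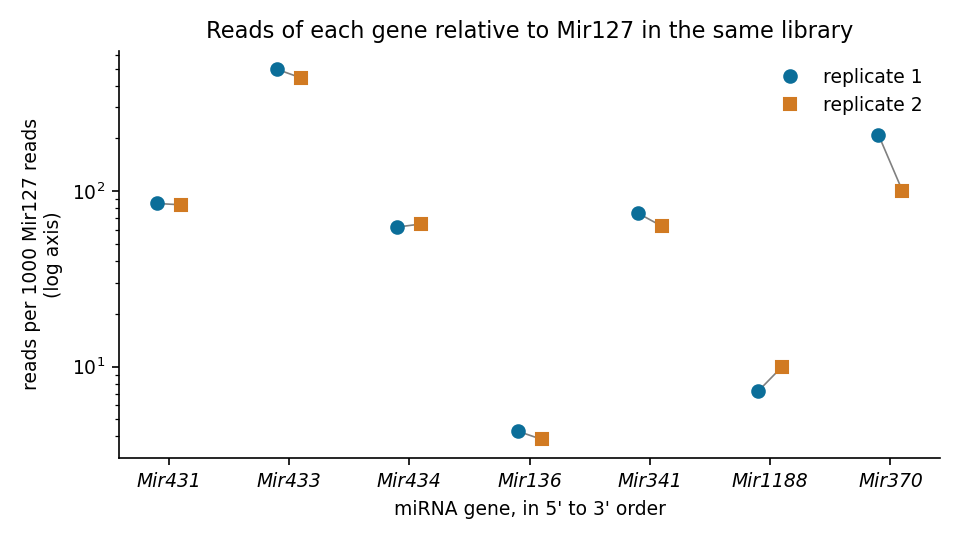
Reads of each of the other 7 genes per 1000 reads of Mir127 in the same library, on a log axis, with a line joining the libraries. The lines of Mir431, Mir434, Mir433 and Mir136 are close to level, while that of Mir370 drops to 100.3 in replicate 2, against 209.9 in replicate 1.

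The libraries were compared gene by gene over the 542 genes at 2 CPM or more in either library. Log2 ratios set replicate 1 over replicate 2 after adding 0.5 reads to both counts, and each gene was tested with Fisher's exact test, two-sided, with Benjamini-Hochberg adjustment over the 542. To be called different, a gene needed an adjusted p below 0.05 together with a log2 ratio beyond 1 in either direction. This compares 2 libraries and not conditions. The test takes reads as independent, which PCR copies are not, so its p-values cover counting error only and are too small as measures of a difference between animals. The labels number the animals but do not say whether anything else differed in their handling, so such a difference may be technical.

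Mir370 was the single member called, 1 of 8, against 12.0% of all tested genes. It was higher in replicate 1, as were 6.27% of the tested genes by the same rule, so the share of the set that was called was near the background. Its log2 ratio was 1.19 (95% exact counting interval 1.15 to 1.23), a 2.28-fold difference, with an adjusted p too small to be stored and listed as 0 by Fisher's exact test. Among the tested genes, 78.0% had a ratio as small in size or smaller. Of the 192 other genes at least as abundant as Mir136, 18 (9.38%) were called by the same rule. The common biological coefficient of variation between the libraries, estimated by edgeR over 442 genes, was 35.5%, beside a plain coefficient of variation of 55.2% for the 2 Mir370 levels.

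Without the minimum on the ratio, all 8 members passed an adjusted p of 0.05, against 42.3% of the tested genes. Of the 8, 7 were higher in replicate 1 and Mir1188 was lower. Among the 229 tested genes that passed, 135 (59.0%) were higher in replicate 1, which is 24.9% of all tested genes. Whether or not they passed, 55.0% of the tested genes were higher there. So were 56.8% of the 192 other genes at least as abundant as Mir136. At these depths a small difference passes, so the sizes say more. Mir433 had a log2 ratio of 0.29, Mir341 of 0.37, Mir431 of 0.15 and Mir127 of 0.13, all with adjusted p of 3.92e-09 or less by Fisher's exact test. Mir1188 had -0.34 (adjusted p 3.17e-05) and Mir136 had 0.28 (adjusted p 0.0311), by the same exact test.

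Mir434 had a log2 ratio of 0.066 (adjusted p 0.0469, Fisher's exact test), which missed the adjusted p with TMM totals (log2 ratio 0.012, adjusted p 0.793) and changed sign with DESeq2 size factors (-0.0023). Mir136 also failed the adjusted p with both scalings (0.0988 and 0.129, exact test). The median log2 ratio of the 8 was 0.22, against 0.091 over all 542 genes. Their median size, whatever the sign, was 0.28, against 0.46 over all tested genes and 0.28 over the 192 other genes at least as abundant as Mir136.

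**Figure D3:**
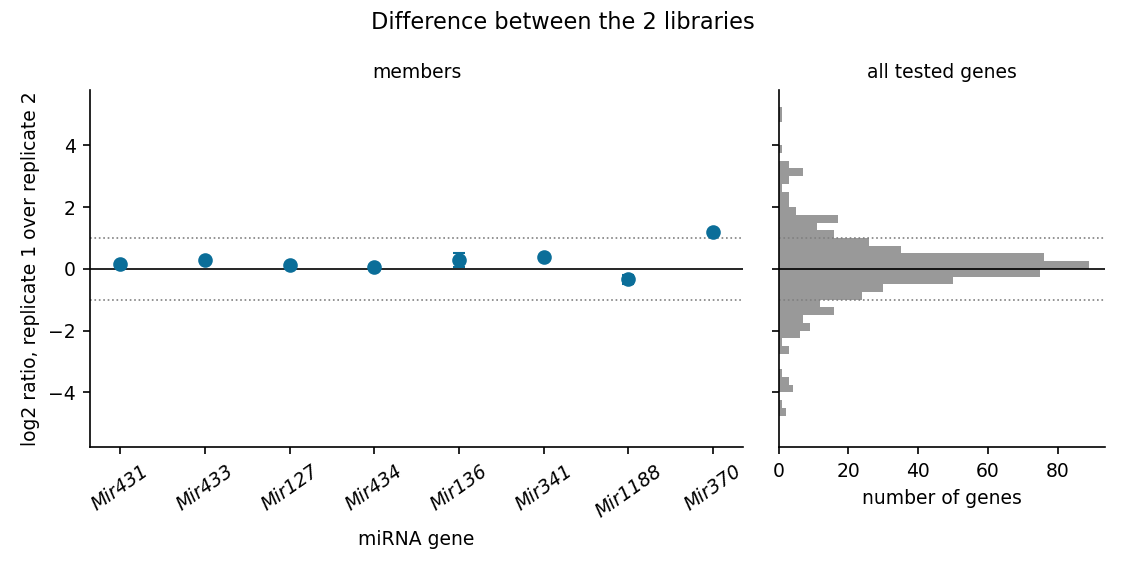
Log2 ratio of each member, replicate 1 over replicate 2, with its 95% exact counting interval (left), beside the distribution over the 542 tested genes (right). Mir370 at 1.19 is the one point beyond the dotted lines at 1 and -1, and the other 7 lie between -0.34 and 0.37.

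Markers of some other cells also differed between the libraries, in both directions. Of 3 erythroid genes, all at 2 CPM or more in both libraries, 2 were called higher in replicate 1, and the summed level was 814 CPM there and 56.6 CPM in replicate 2. Of 10 genes listed for choroid plexus and ependyma, 6 were at 2 CPM or more in both libraries, with sums over the list of 1387 and 3850.1 CPM. A partly different 6 were called lower in replicate 1. Among these, Mir34b (3 and 30 reads) and Mir449c (0 and 6 reads) lay below 2 CPM in replicate 1. Mir204 and Mir1264, above it in both libraries, were not called, nor was Mir449b (3 and 0 reads), which went the other way. The summed level of the oligodendrocyte list was 834 CPM in replicate 1 and 1423 CPM in replicate 2, with 3 of 4 genes at 2 CPM or more in both and Mir219b at 0 reads. None of its genes was called. Mir219a-2 and Mir338 stood lower in replicate 1 (log2 ratios -0.92 and -0.69), and Mir219a-1 stood higher (0.28). The neuron sums given above differed by a log2 ratio of 0.36, with 1 of 13 genes called higher and 1 called lower in replicate 1. In the microglia and leukocyte list (6 of 6 genes at 2 CPM or more in both, sums of 8845 and 6955 CPM) and the endothelial and mural list (3 of 3, 13639 and 15214 CPM), no gene was called. The part of these cells in the difference at Mir370 was not tested. Reads without a place in the genome made up 25.5% of replicate 1 and 42.4% of replicate 2, and their part was not tested either.

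The strand of the reads mattered for Mir136. Another miRNA gene, Mir3071 (chr12:109595318-109595397, minus strand), covers the whole Mir136 hairpin on the other strand. The overlap is shown here with the mature strands in capitals in Mir136 and with the 62 bases over Mir136 in capitals in Mir3071.
Mir136: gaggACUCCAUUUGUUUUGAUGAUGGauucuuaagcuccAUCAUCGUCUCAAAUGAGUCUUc
Mir3071: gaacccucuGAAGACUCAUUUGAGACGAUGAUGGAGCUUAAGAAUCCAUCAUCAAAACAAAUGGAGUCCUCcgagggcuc
Counted by strand, Mir136 had 463 reads in replicate 1 and 249 in replicate 2, and Mir3071 had 0 and 0. The opposite-strand column of Mir3071 held the same 463 and 249 reads. Counted without strand, both genes had 0 reads in both libraries. All reads counted at this place ran in the direction of Mir136.

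For the other 7 members the columns agreed. Mir1188 aside, they had no read on the opposite strand in either library, and their unstranded counts equalled the sense counts. Mir1188 had 2 opposite-strand reads in replicate 1 and 0 in replicate 2. The Rtl1 mRNA runs on that opposite strand through 5 of the hairpins. It left no read in the opposite-strand column of those 5 genes, in libraries labelled with a size range under 30.

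Along the whole region, from Meg3 to Mirg, 59 miRNA genes are listed on the plus strand, and the 8 members made up 35.8% of their reads in replicate 1 and 28.7% in replicate 2. The members held a smaller part of the region's reads in replicate 2, although the region as a whole took 21.9% and 22.8% of assigned reads. The genes 5′ of the members took 19.2% and 25.1% of the region's reads, and those 3′ of them 45.0% and 46.2%. The most abundant gene of each block, Mir770 and Mir487b, stood higher in replicate 2 (log2 ratios -0.52 and -0.91). Of the tested genes, 2 of 8 in the 5′ block and 22 of 36 in the 3′ block stood higher in replicate 1. The part of single genes in the members' smaller share was not tested. Placed among the 59 by mean level, Mir127 came 2nd, Mir433 5th, Mir370 9th, Mir431 12th, Mir341 15th, Mir434 16th, Mir1188 34th and Mir136 42nd.

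The 9 listed genes 5′ of Mir431, 8 of them at 2 CPM or more in both libraries, are led by Mir770, which lies within the span of Meg3. Mir770 had 35510.2 CPM in replicate 1 and 50806 CPM in replicate 2, Mir337 had 3065 and 2308, and Mir540 had 1713 and 1855. The 40 genes 3′ of Mir370, which belong to Mirg and its surroundings, include 36 at that level. They were led by Mir487b with 19093 and 35792 CPM in replicates 1 and 2, Mir382 with 21034 and 18008, and Mir541 with 11699 and 9882.

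The median level of the 8 members was 2971 CPM, against 928 CPM for the 8 genes 5′ of them and 497 CPM for the 36 genes 3′ of them. The median log2 ratio of the members was 0.22, against -0.21 for the 5′ genes and 0.13 for the 3′ genes. Of the members 7 of 8 were higher in replicate 1, against 2 of 8 of the 5′ genes and 22 of 36 of the 3′ genes. These are descriptions, and no difference between the groups of genes was tested. The 3′ genes Mir539 and Mir544 were the other called ones of the region, with log2 ratios of 1.56 and 1.21, and were named after their values were seen. Mir1193, which shares the seed of miR-370-5p, had 202 reads (75.4 CPM) in replicate 1 and 72 reads (41.1 CPM) in replicate 2.

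**Figure D4:**
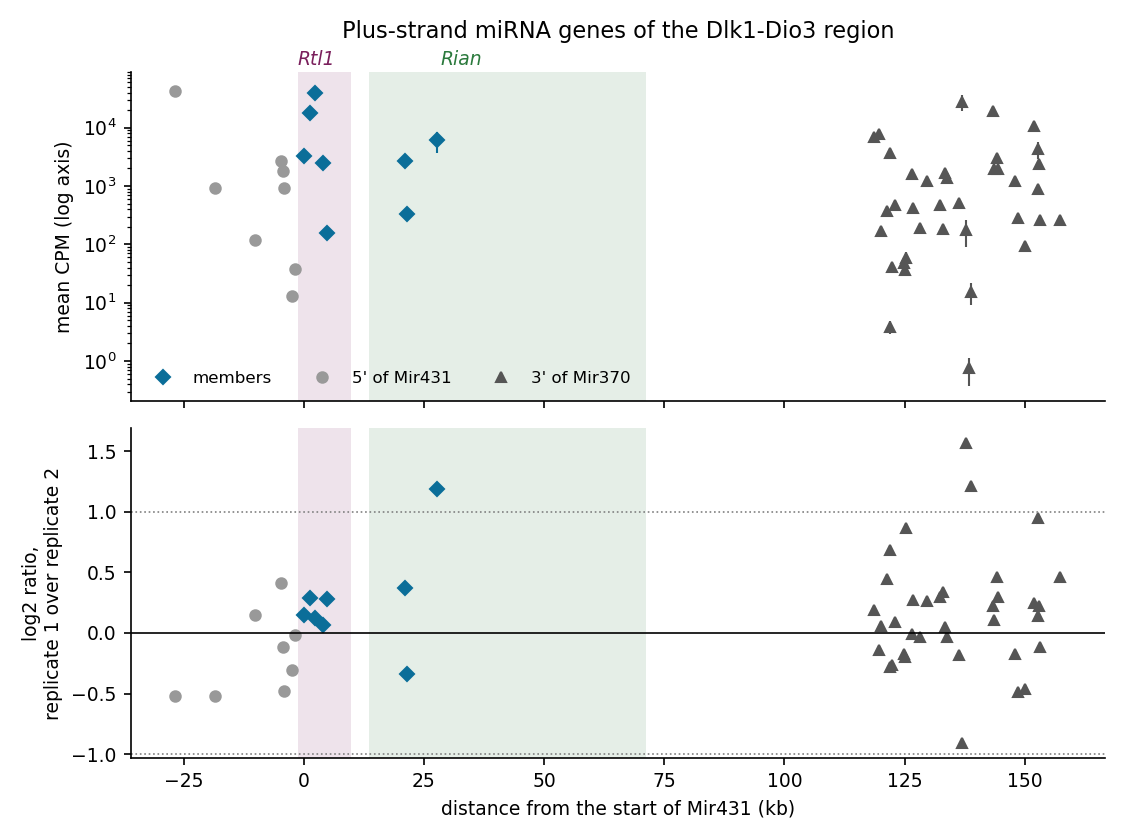
Mean CPM on a log axis with the range of the 2 libraries (top) and log2 ratio of replicate 1 over replicate 2 for the tested genes (bottom), by distance from the start of Mir431 along the plus strand, for genes with at least 1 read. The shaded spans are Rtl1 and Rian, the dotted lines mark 1 and -1, and Mir370 at 1.19 is the 1 member outside them.

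For each member, the gene outside the set with the most similar levels was found by Euclidean distance of log2(CPM + 1) over the 2 libraries. For 3 of the 8 it was another gene of the region. Mir341 was matched by Mir337 (distance 0.025, 3065 and 2308 CPM in replicates 1 and 2), Mir434 by Mir369 (0.13, 2570.3 and 2208 CPM) and Mir136 by Mir299a (0.22, 174 and 166 CPM). The others lay on other chromosomes. Mir431 was matched by Mir335 on chromosome 6 (0.017, 3416 and 3124 CPM), Mir433 by Mir99a on chromosome 16 (0.11, 19769 and 15186 CPM) and Mir1188 by Mir467e on chromosome 2 (0.21, 329 and 342 CPM). Mir127 and Mir370 had no close match. Nearest were Mir744 on chromosome 11 to Mir127 (0.40, 31125 and 33281 CPM) and Mir23a on chromosome 8 to Mir370 (0.36, 6660.0 and 4015 CPM). With 2 libraries, likeness of this kind is mostly likeness of level.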

How the data were processed

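MicroRNA sequencing of the left cerebral cortex gave 1 library from each of 2 animals. The authors' deposited files hold raw counts, made on assembly mm10 with GENCODE M21 according to their accompanying text files. For the aligner, counting program and trimming, details are not given in the sources used. Each file holds 3 count columns, whose values show reads counted without strand, on the gene's strand and on the opposite strand, and the sense column was used. The 4 entries that name no gene (unmapped, multiply mapped, unannotated and ambiguous reads), 70.5% and 76.5% of reads in replicates 1 and 2, were left out of library totals and tests.

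Counts were divided by the summed sense reads. All 2202 identifiers matched M21, which gave symbols and coordinates. Sequences for all 8 genes came from RefSeq (GRCm38.p6), with hairpin coordinates equal to those of M21. The 2 libraries were compared across all genes with Fisher's exact test, two-sided, with Benjamini-Hochberg adjusted p. The steps were tested on simulated counts with counting error only. Such counts cannot show how the test behaves where animals or libraries vary. Named were the members, listed genes overlapping them, the 3 most abundant genes of each flanking block, the nearest gene in level to each member, and markers. Mir432, Gm23912, Mir1193, Mir539 and Mir544 were added after their values were seen. The members, lists and tests were chosen with earlier results of these data known. With 1 group, the p-values compare 2 libraries and cover counting error only, not the spread between animals. A difference between the libraries may be technical. Alternatives were unstranded counts, TMM totals (edgeR 4.0.16), DESeq2 1.42.0 size factors, other totals, other minimum levels, 1 read added, no minimum ratio, and leaving out each library. The common biological coefficient of variation by edgeR was 35.5%. R 4.3.3, Python 3.11.15, numpy 2.4.6, scipy 1.17.1 and pandas 2.3.3 were used.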

Additional observations from a re-analysis of the deposited data

How the results depend on the processing

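The share of the 8 genes was 3.19% of reads when multiply mapped reads joined the total, and 32.2% with the miRNA genes of the region as the total. It was 7.66% with unstranded counts, within 1 SD of the main value. Leaving out a library gives the other's value (6.54% and 7.82%) and, with 2 libraries, says nothing about stability. Without the minimum ratio, 8 members and 229 genes passed in place of 1 and 65. In the other 5 alternatives 1 member passed, and between 53 and 64 genes. The order of the members kept 6 of 8 places without replicate 1 and 8 of 8 without replicate 2, Mir341 and Mir434 changing places. In counts added after the data were seen, members higher in replicate 1 numbered 6 or 7. Members past an adjusted p of 0.05 alone numbered 6 with TMM totals and with DESeq2 size factors, and 7 with unstranded counts or no minimum level. Of 39 log2 ratios under alternatives, 38 kept their sign and their side of the joint threshold on adjusted p and ratio. The exception was Mir434, at -0.0023 with DESeq2 size factors. On adjusted p alone, Mir434 and Mir136 failed with both scalings. The adjusted p of Mir434 by Fisher's exact test ran from 9.71e-06 to 0.984, and that of Mir136 from 0.00384 to 0.129. The log2 ratio of Mir370 ran from 1.12 to 1.25. Mir136 had 0 CPM with unstranded counts. No library test can be made with 1 library left out. No paired analysis was possible because there is 1 group.

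With 2 libraries, differences between animals, dissection and library preparation cannot be told apart. Counts do not separate the arms of a hairpin, or the alleles.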
